A study of Homo sapiens with 14 samples.

Results

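The BCOR corepressor genes BCOR, BCORL1, KDM2B and PCGF1 were described across every treatment of A549, an established human lung carcinoma cell line. All rows carrying these 4 gene names were taken from the isoform tables, which gave 43 isoforms of the 195553 listed and 4 genes of the 57756 listed. RNA was sequenced from 14 bulk libraries, 2 for each of 7 groups. Untreated cells formed one group. Cells given an empty vector and a control siRNA formed the vector control, and cells given the empty vector after knockdown of U2AF1 formed the knockdown group. In the other 4 groups U2AF1 was knocked down and then supplied by virus as 1 of 2 U2AF1 isoforms (v1, v3), in the normal form or with the S34F mutation. The labels do not say whether replicates came from separate cultures, so all p-values measure the spread between these libraries, which may be technical. The constructs raise U2AF1 far above its own level, and every group rests on 1 cell line.

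BCOR binds the transcriptional repressor BCL6 and, through its C-terminal part, the Polycomb protein PCGF1. PCGF1, BCOR or its paralog BCORL1, and KDM2B form a variant Polycomb repressive complex 1 together with a RING1-type ubiquitin ligase, and this complex places ubiquitin on histone H2A. KDM2B brings the complex to unmethylated CpG islands through its zinc finger. U2AF1 is the small subunit of the splicing factor U2AF and contacts the AG dinucleotide at the end of an intron, the acceptor. S34F lies in a zinc finger of U2AF1 and is known to change which bases next to that AG are preferred.

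In the annotation of the files (GRCh37) BCOR (ENSG00000183337) lies at chrX:39909068-40036582 on the minus strand and BCORL1 (ENSG00000085185) at chrX:129115083-129192058 on the plus strand. KDM2B (ENSG00000089094) lies at chr12:121866900-122018920 and PCGF1 (ENSG00000115289) at chr2:74732170-74735707, both on the minus strand. The results on BCOR turned on one exon with alternative acceptors, so its sequence is shown first. In GENCODE release 29 (GRCh38, minus strand) exon 8 of the 15-exon isoform ENST00000378444 starts at an upstream acceptor and is 345 bases long. All other BCOR isoforms that span this site start the exon at a downstream acceptor, which shortens it to 243 bases. The 102 bases between the acceptors, chrX:40063851-40063952, are coding, make up 34 whole codons, hold 0 stop codons in frame and have a GC content of 44.1%. The capitals mark the last 3 bases before the downstream acceptor, and the base at position -3 of that acceptor, counted back from the exon, is C.
BCOR between acceptors: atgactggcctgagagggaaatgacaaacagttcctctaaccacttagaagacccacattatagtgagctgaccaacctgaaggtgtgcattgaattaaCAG
The bases before the upstream acceptor were not read here. A second variable part of BCOR is exon 5 of ENST00000378444, a coding exon of 54 bases or 18 codons at chrX:40071637-40071690 (GRCh38), which ENST00000378455 leaves out.
BCOR cassette exon: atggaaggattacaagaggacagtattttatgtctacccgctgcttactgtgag

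U2AF1 itself was read first as a check of the labels. Its gene level was 117.9 ± 1.37 FPKM in the vector control and 22.5 ± 8.97 FPKM in the knockdown (mean ± SD, n = 2), where FPKM is fragments mapped to a transcript, scaled for its length and for the size of the library. In the 8 libraries with a construct it was between 2114 and 3852 FPKM. Relative sequencing depth, from the coverage given per FPKM, was between 0.798 and 1.198 times the mean library. One short transcript, AL132768.1, held 33.1% of all FPKM in v1 S34F replicate 2, and MIR1260B held 8.81% in knockdown replicate 1. Of 6 epithelial markers all 6 were at a mean of 1 FPKM or more, with a summed level of 3825 to 4762 FPKM per library, and KRT7, KRT8 and KRT18 led. Of 7 markers of alveolar type 2 cells 2 reached that level, the summed level was 8.54 to 12.3 FPKM, and SFTPA1 and SFTPA2 were listed at 0 in all libraries. Of 7 fibroblast markers 2 reached it, the summed level was 8.49 to 16.2 FPKM, and DCN was listed at 0 in all libraries. Of 8 measured leukocyte and endothelial markers 2 reached it and the summed level was 1.37 to 4.63 FPKM. In bulk libraries, a change in the number of cells that express a gene and a change in RNA per cell cannot be told apart.

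At the gene level PCGF1 rose after knockdown of U2AF1, and BCOR, BCORL1 and KDM2B passed the test in none of the comparisons. PCGF1, the Polycomb subunit that pairs with BCOR, was at 17.2 and 19.96 FPKM in untreated cells and at 15.4 and 13.5 FPKM in the vector control. It was at 24.6 and 25.5 FPKM in the knockdown, above both control libraries and both untreated libraries. The v1 wild-type libraries had 18.0 and 21.6 FPKM and the v3 wild-type libraries 23.9 and 19.3 FPKM. The v1 S34F libraries had 24.2 and 27.1 FPKM and the v3 S34F libraries 24.8 and 25.7 FPKM. All 4 S34F libraries were above all 4 wild-type libraries, by a margin smaller than the spread among the wild-type libraries. How many of all genes separate in this way was not counted. The order of the group means ran from the vector control through untreated, v1 wild type and v3 wild type to the knockdown, v3 S34F and v1 S34F, and the libraries of the last 3 groups overlapped.

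The rise of PCGF1 after knockdown was 0.76 in log2(FPKM + 1) (SE 0.15, adjusted p = 0.0275, limma with Benjamini-Hochberg adjustment over 14233 genes). It was 1.60-fold in replicate 1 and 1.89-fold in replicate 2. PCGF1 was 1 of 4 genes called in that comparison, where 2.85% of all tested genes were called in either direction and 0.787% as higher. The call was lost on leaving out vector control replicate 2 (0.67, adjusted p = 0.157), knockdown replicate 1 (0.78, adjusted p = 0.131) or knockdown replicate 2 (0.73, adjusted p = 0.176). Across the 7 groups PCGF1 also differed (F = 7.66, adjusted p = 0.0444), 1 of 4 genes against 5.04% of all genes, and this call was lost on leaving out any 1 of the 14 libraries.

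PCGF1 did not pass the test in the other comparisons. S34F against wild type, averaged over v1 and v3, gave 0.29 (SE 0.10, 95% confidence interval 0.06 to 0.52, adjusted p = 0.199, limma). Wild-type U2AF1 against knockdown gave -0.27 (interval -0.55 to 0.01, adjusted p = 0.335, limma), and the vector control against untreated cells gave -0.34 (adjusted p = 0.965, limma). The knockdown comparison shares its control libraries with the comparison against untreated cells and its knockdown libraries with the wild-type comparison, so these values are not independent of each other.

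BCOR was at 19.3 and 14.8 FPKM in untreated cells and at 15.3 and 17.1 FPKM in the vector control. The knockdown libraries were the highest, at 23.1 and 22.2 FPKM. The v1 wild-type libraries had 18.0 and 20.7 FPKM and the v3 wild-type libraries 17.4 and 20.9 FPKM. The v1 S34F libraries had 20.2 and 20.1 FPKM and the v3 S34F libraries 18.5 and 21.8 FPKM. Libraries of all groups other than the knockdown overlapped with those of at least one other group. The difference between knockdown and vector control was 0.46 in log2(FPKM + 1) (SE 0.16) and did not pass the test (adjusted p = 0.141, limma). S34F against wild type gave 0.07 with a 95% confidence interval of -0.18 to 0.31, so the total level of BCOR showed no detectable difference there.

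BCORL1, the paralog of BCOR, had the lowest level of the 4 genes, from 5.57 FPKM in untreated replicate 2 through a median of 6.93 to 7.69 FPKM in vector control replicate 2. Its group means lay between 6.24 and 7.12 FPKM and neighbouring means differed by less than the spread of the untreated libraries. S34F against wild type gave -0.03 (interval -0.28 to 0.21). KDM2B, which binds CpG islands, ranged from 10.2 FPKM in v3 wild type replicate 1 through a median of 11.9 to 15.4 FPKM in vector control replicate 2. The vector control libraries had 11.3 and 15.4 FPKM, and both knockdown libraries, at 11.95 and 14.9 FPKM, fell between them. The wild-type libraries had 11.2, 11.3, 10.2 and 11.5 FPKM and the S34F libraries 12.7, 13.0, 11.8 and 11.9 FPKM, without overlap. That difference was 0.15 (SE 0.11, adjusted p = 0.591, limma) and did not pass the test. The share of all genes without such overlap was not counted. KDM2B overlaps RNF34 on the other strand, which had a mean of 29.2 FPKM, and whether the counting used strand is not given in the sources used here.

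Of the 4 genes, 0 were called for S34F against wild type averaged over constructs (1 at an unadjusted p under 0.05, limma), where 1.85% of all genes were called. For wild type against knockdown 0 of 4 were called (0 at an unadjusted p under 0.05), where 1.43% of all genes were called. For vector control against untreated cells 0 of 4 were called (1 at an unadjusted p under 0.05), against 0% of all genes. Within v1 alone 0 of 4 were called for S34F (1 at an unadjusted p under 0.05), against 0.176% of all genes. Within v3 alone 0 of 4 were called (0 at an unadjusted p under 0.05), against 0.0211%. Neither v3 against v1 nor the difference of the S34F effects between v3 and v1 gave a call for the 4 genes (0 and 0 at an unadjusted p under 0.05). Of all 14233 genes, 2266 had an unadjusted p under 0.05 for S34F averaged over constructs and 2242 for wild type against knockdown. The count was 730 for vector control against untreated cells, 1413 for S34F within v1 and 917 within v3 (limma).

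**Figure D1:**
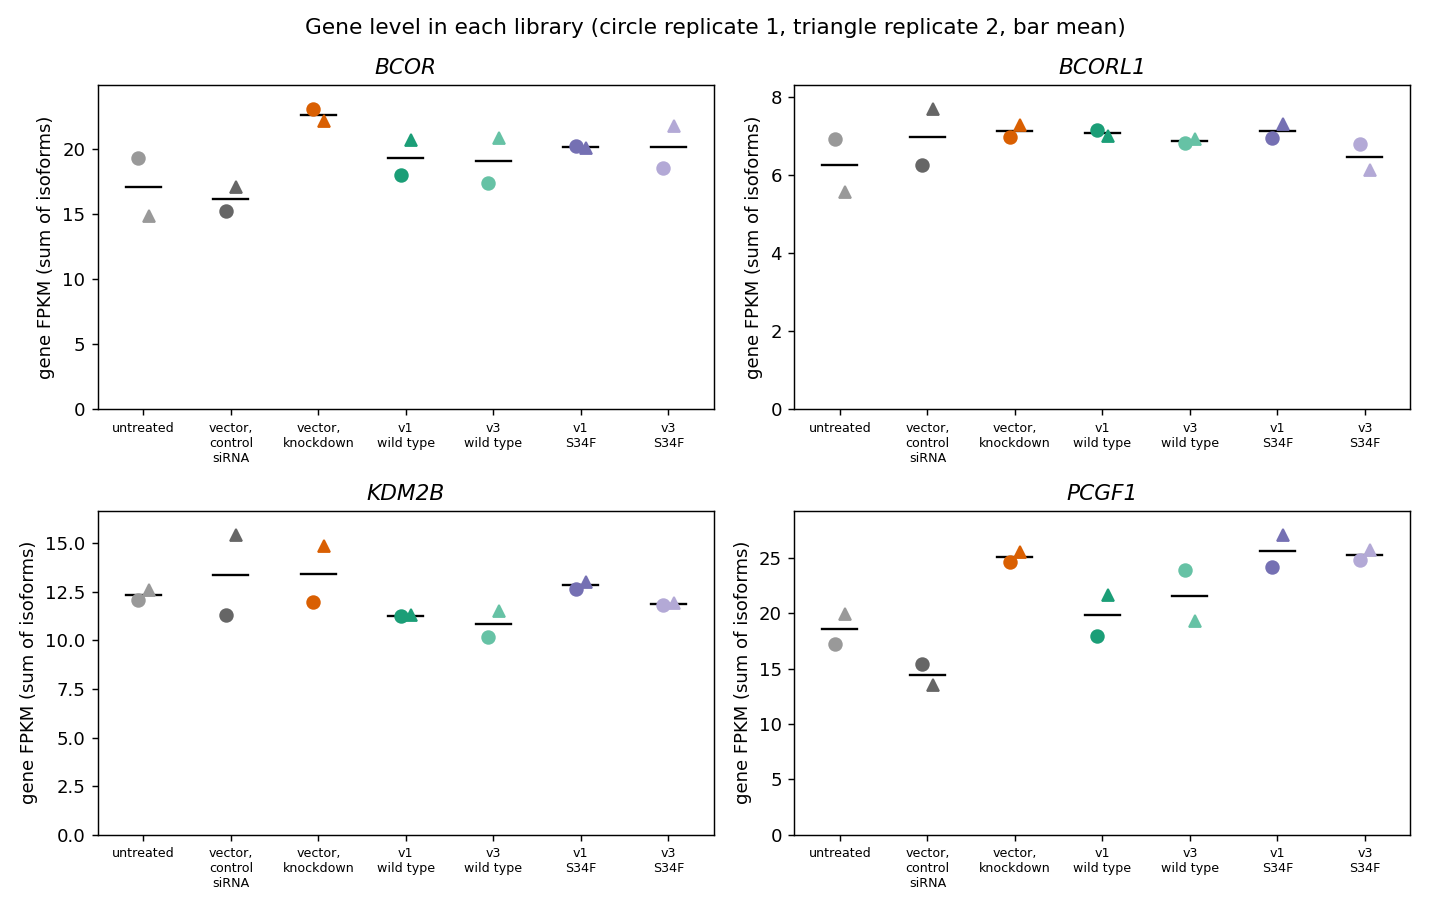
Gene FPKM (y axis, linear from 0) of BCOR, BCORL1, KDM2B and PCGF1 in each library by treatment, with replicate 1 as circles, replicate 2 as triangles and the group mean as a bar. PCGF1 is at 24.6 and 25.5 FPKM in the knockdown against 15.4 and 13.5 FPKM in the vector control.

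**Figure D2:**
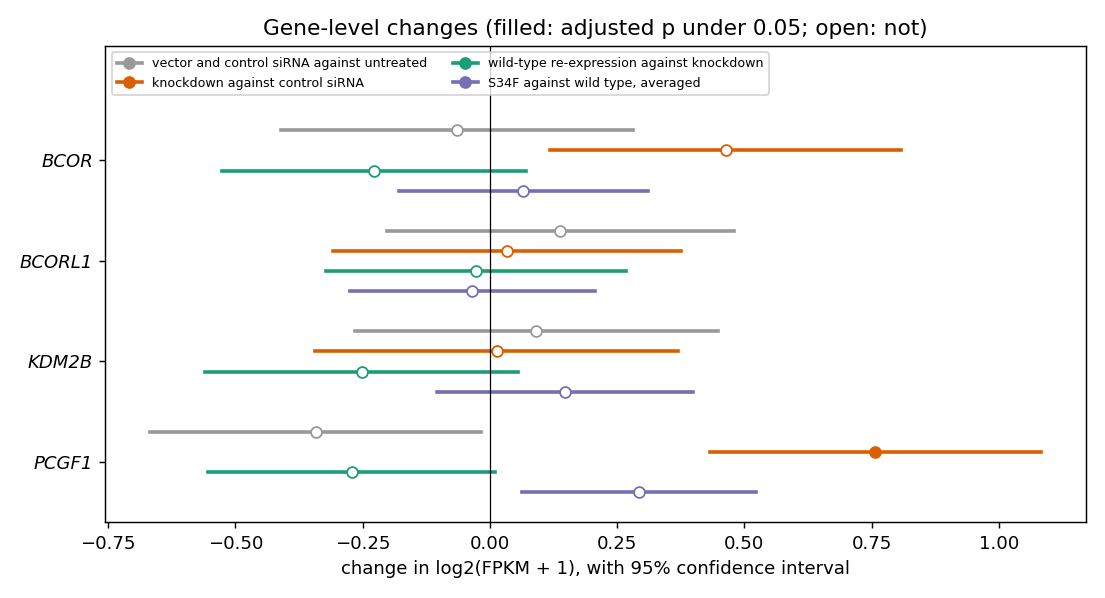
Change in log2(FPKM + 1) of each gene (x axis) in 4 comparisons, with 95% confidence intervals from limma as lines; filled points have an adjusted p under 0.05. Only PCGF1 after knockdown, at 0.76, is filled among the 16 values drawn.

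The clearest difference lay inside BCOR. With S34F the upstream acceptor of exon 8 was used less and the downstream acceptor more, while total BCOR stayed within its spread. Upstream acceptor usage, the FPKM of isoforms that use it as a percentage of the FPKM of all isoforms spanning the site, was 29.5% and 26.9% in untreated cells. It was 36.4% and 25.6% in the vector control and 37.8% and 34.6% in the knockdown. The v1 wild-type libraries had 53.4% and 60.5%, and the v3 wild-type libraries 37.1% and 55.4%. The v1 S34F libraries had 10.2% and 16.1%, and the v3 S34F libraries 19.2% and 6.36%. All 4 S34F libraries were below all 10 libraries without S34F, the lowest of which had 25.6%. How many of all acceptors separate in this way was not counted.

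Averaged over v1 and v3, S34F against wild type changed upstream acceptor usage by -38.6 percentage points (SE 5.06, 95% confidence interval -50.0 to -27.3, adjusted p = 0.0190, limma over 29956 acceptors). Usage was lower with S34F in each construct and replicate, by -43.2 and -44.4 points in v1 and by -17.9 and -49.0 points in v3. The upstream and downstream acceptors of this exon add up to the whole, so they are 1 choice counted as 2 of the 14 member acceptors tested. Across all genes 1.37% of acceptors were called in this comparison, 0.865% as lower. Within v1 alone the change was -43.8 points (adjusted p = 0.0815, limma) and within v3 alone -33.4 points (adjusted p = 0.220, limma). Neither passed the test on its own, and the difference between them was 10.4 points with an interval of -12.4 to 33.1. The averaged call was lost on leaving out v1 wild type replicate 1 (-40.4 points, adjusted p = 0.0618) or replicate 2 (-36.9 points, adjusted p = 0.0645). It was also lost without v3 wild type replicate 2 (-34.1 points, adjusted p = 0.0547), v1 S34F replicate 2 (-40.1 points, adjusted p = 0.0553) or v3 S34F replicate 2 (-35.4 points, adjusted p = 0.0674). The size stayed between -43.2 and -34.1 points over all 8 omissions.

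In FPKM, isoforms with the upstream acceptor were at 9.62 ± 2.58 in the wild-type libraries and 2.48 ± 0.987 in the S34F libraries (mean ± SD, n = 4, over both constructs). Isoforms with the downstream acceptor were at 8.81 ± 1.16 in the wild-type and 17.1 ± 2.25 in the S34F libraries. Of the BCOR isoforms only ENST00000378444 uses the upstream acceptor. The intervals that the authors deposited with its FPKM did not overlap between these groups: the lowest lower bound among wild-type libraries was 5.40 FPKM and the highest upper bound among S34F libraries was 3.93 FPKM. Over all 10 libraries without S34F the lowest lower bound was 3.24 FPKM, so beyond the wild-type libraries the intervals did overlap with those of S34F. These intervals cover the estimate within a library and not the spread between libraries.

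The other comparisons gave no call for this acceptor. Wild-type U2AF1 against knockdown gave 15.4 points (SE 6.20, adjusted p = 0.343, limma). Knockdown against vector control gave 5.16 points with an interval of -10.9 to 21.2. The wild-type libraries enter both the S34F comparison and the comparison with the knockdown, so the wild-type level is part of both values. The 4 wild-type libraries ranged from 37.1% to 60.5%, and 3 of them were above every library outside the wild-type groups. Mean usage was 31.0% in the vector control, 57.0% and 46.2% in v1 and v3 wild type, and 13.1% and 12.8% in v1 and v3 S34F. S34F was not tested against the vector control, untreated cells or the knockdown. The S34F change given above is therefore a difference from the wild-type constructs only.

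**Figure D3:**
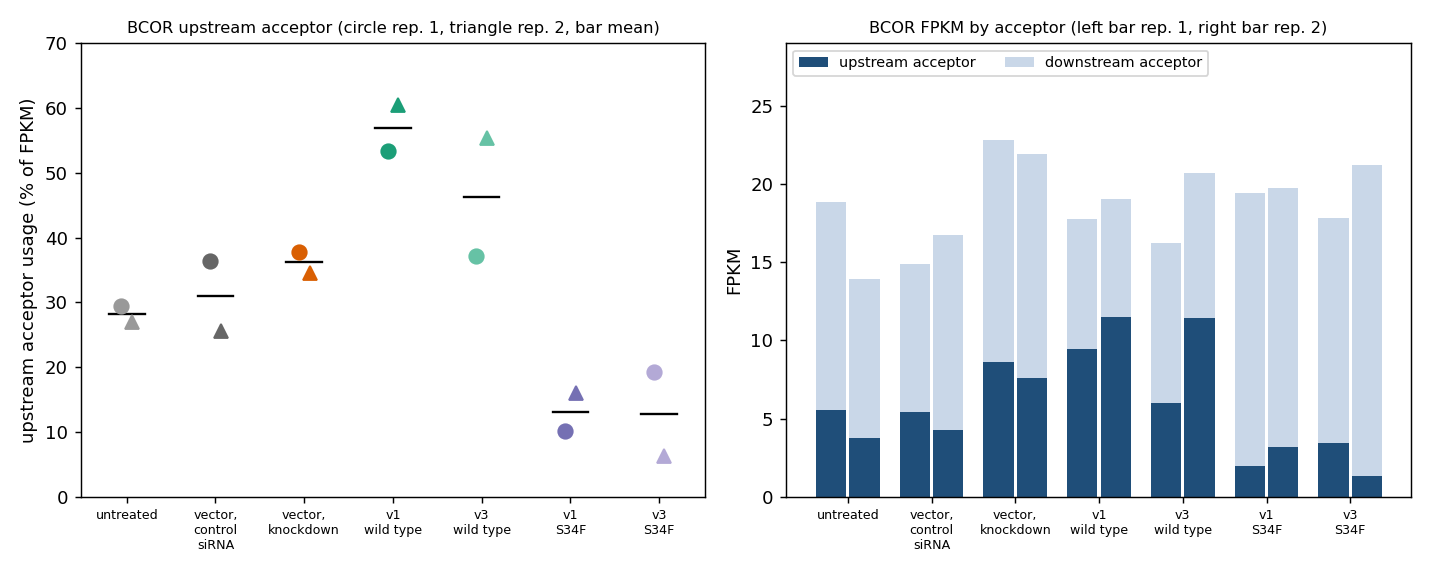
Left, usage of the upstream acceptor of BCOR exon 8 (y axis, percent of the FPKM of isoforms that span it) in each library, with replicate 1 as circles, replicate 2 as triangles and the group mean as a bar. Right, FPKM of BCOR isoforms with the upstream (dark) and downstream (light) acceptor stacked for each library; the 4 S34F libraries have 6.36% to 19.2% upstream usage, below the other 10 libraries.

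BCOR has 11 isoforms in the files, of which 4 had a mean usage of at least 5% of the gene's FPKM, and all 4 are annotated as protein coding. ENST00000397354 (35.3% mean usage) has the cassette exon and the downstream acceptor. ENST00000378444 (31.0%) has the cassette exon and the upstream acceptor. ENST00000378455 (22.5%) starts at the most distal first exon, leaves out the cassette exon and has the downstream acceptor. ENST00000413905 (7.38%) covers only the 3′ part of the gene, and the other 7 isoforms stayed below 2% on average.

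ENST00000378444 was 1 of 17 member isoforms called for S34F against wild type, where 0.681% of all tested isoforms were called and 0.244% as lower. Its usage was 28.8% and 25.3% in untreated cells, 35.5% and 25.1% in the vector control and 37.4% and 34.1% in the knockdown. It was 52.6% and 55.6% in v1 wild type and 34.6% and 54.9% in v3 wild type, against 9.79% and 15.8% in v1 S34F and 18.6% and 6.18% in v3 S34F. The change was -36.8 points (SE 5.00, adjusted p = 0.0206, limma over 41727 isoforms), from a single isoform that also defines the upstream acceptor, so this is the same measurement in another denominator. The call was lost without v1 wild type replicate 1 (adjusted p = 0.0704) or replicate 2 (adjusted p = 0.0793), v3 wild type replicate 2 (adjusted p = 0.0646), v1 S34F replicate 2 (adjusted p = 0.0576) or v3 S34F replicate 2 (adjusted p = 0.0824), all by limma.

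Usage of both other full-length isoforms was higher on average with S34F than with wild type, and neither passed the test. ENST00000378455 was at 5.95% and 14.1% in untreated cells, 12.3% and 16.4% in the vector control and 34.6% and 30.8% in the knockdown. It was at 17.8% and 16.1% in v1 wild type and 15.7% and 18.7% in v3 wild type. It was at 30.02% and 41.8% in v1 S34F and 24.4% and 36.7% in v3 S34F, above all 4 wild-type libraries and overlapping with the knockdown. S34F against wild type gave 16.1 points (SE 3.87, adjusted p = 0.106, limma). Knockdown against vector control gave 18.4 points (SE 5.47, adjusted p = 0.278, limma).

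ENST00000397354 was at 49.1% and 45.9% in untreated cells and 41.1% and 42.7% in the vector control. It was at 15.5% and 25.9% in the knockdown, below every untreated and vector control library. How many of all isoforms separate in this way after knockdown was not counted. The wild-type libraries had 28.1% and 14.1% in v1 and 40.3% and 19.9% in v3, and the S34F libraries 39.4% and 39.7% in v1 and 50.1% and 42.0% in v3. S34F against wild type gave 17.2 points (SE 5.18, adjusted p = 0.195, limma) and knockdown against vector control -21.3 points (SE 7.33, adjusted p = 0.353, limma). ENST00000413905 ranged from 0.00188% to 14.2%, and 2 of its 14 libraries had a deposited lower bound of 0.

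Inclusion of the cassette exon, as a percentage of the FPKM of isoforms spanning it, was 92.9% and 83.5% in untreated cells and 86.2% and 80.6% in the vector control. It was 60.4% and 66.05% in the knockdown. The wild-type libraries had 81.9% and 81.2% in v1 and 82.6% and 80.01% in v3. The S34F libraries had 62.1% and 57.1% in v1 and 73.8% and 56.7% in v3, below all wild-type libraries. How many of all cassette exons separate in this way was not counted. S34F against wild type gave -19.0 points (SE 4.35, adjusted p = 0.0663, limma over 14624 cassette exons) and knockdown against vector control -20.2 points (SE 6.15, adjusted p = 0.194, limma). Neither passed the test. With the replicate number as a block, which does not pair isoform usage, the S34F value was called (adjusted p = 0.0482, limma) and the knockdown value was not (adjusted p = 0.148, limma). Of 5 member cassette exons 0 were called for S34F (1 at an unadjusted p under 0.05), against 1.94% of all cassette exons. Of all 14624 cassette exons, 2364 had an unadjusted p under 0.05 there (limma). ENST00000378455 alone among the expressed isoforms both starts at the distal first exon and skips this exon, so a change of start and a change of skipping cannot be told apart in these tables. No BCOR start site was called either.

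**Figure D4:**
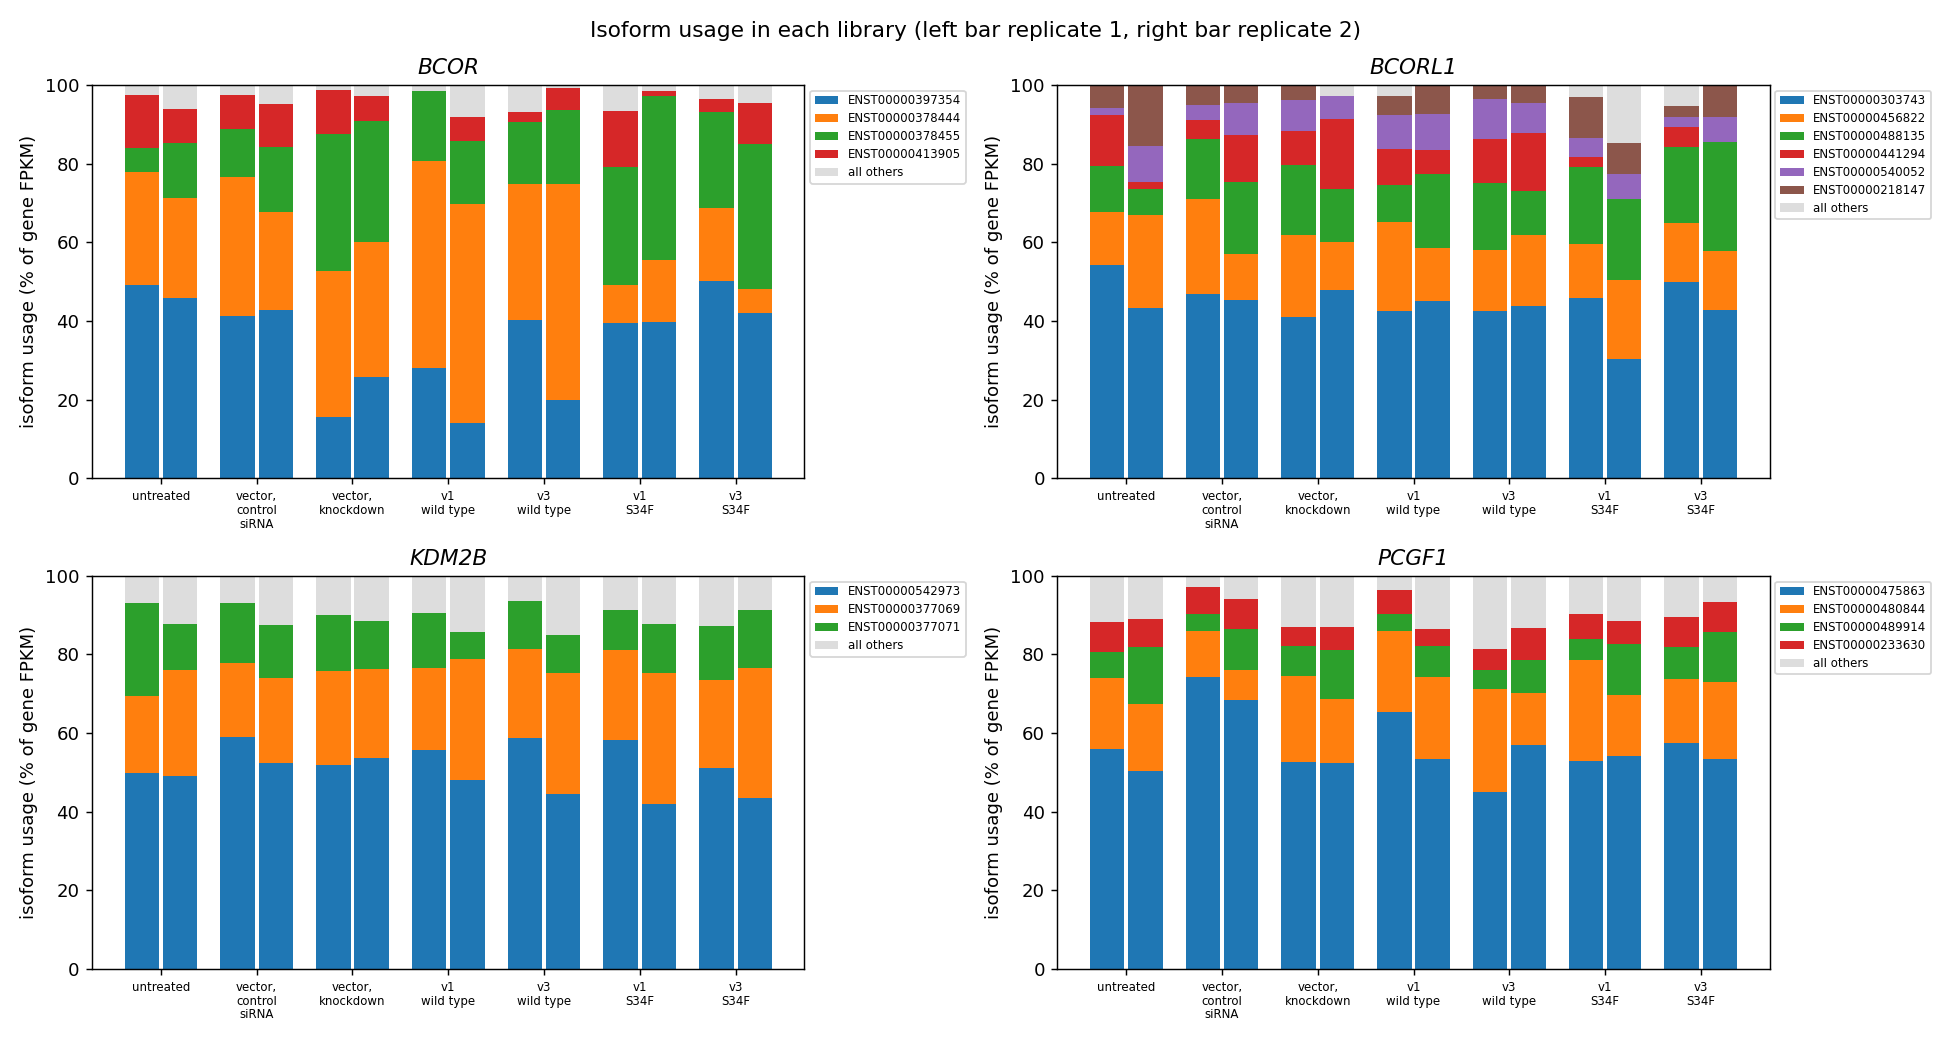
Isoform usage (y axis, percent of gene FPKM) of the isoforms with a mean usage of at least 5%, stacked for each library with replicate 1 left and replicate 2 right; grey holds the remaining isoforms. In BCOR, ENST00000378444 takes 34.6% to 55.6% in the wild-type and 6.18% to 18.6% in the S34F libraries.

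BCORL1 has 8 isoforms in the files, and 6 of them reached a mean usage of 5%. ENST00000303743 led with 44.4%, its lowest usage being 30.3% (v1 S34F replicate 2) and its highest 54.3% (untreated replicate 1). It has no entry in GENCODE release 29, so the splice choices of BCORL1 rest on the remaining FPKM. ENST00000456822 (17.1%), ENST00000441294 (7.68%), ENST00000540052 (6.59%) and ENST00000218147 (5.96%) are protein coding, and ENST00000488135 (16.2%) is annotated as a target of nonsense-mediated decay, the pathway that degrades transcripts with early stop codons.

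ENST00000488135 was at 9.33% and 18.9% in v1 wild type and 16.9% and 11.1% in v3 wild type. It was at 19.7% and 20.6% in v1 S34F and 19.2% and 27.7% in v3 S34F, above all 10 libraries without S34F, the highest of which had 18.9%. How many of all isoforms separate from all 10 libraries was not counted. The difference between S34F and wild type was 7.72 points (SE 3.17, interval 0.59 to 14.8) and did not pass the test (adjusted p = 0.371, limma). ENST00000441294 was at 6.20% to 14.9% in the wild-type libraries and at 5.18% or less in the S34F libraries, with a difference of -8.52 points (SE 3.18, adjusted p = 0.313, limma). ENST00000540052 was at 7.67% to 10.2% in the wild-type and 2.52% to 6.48% in the S34F libraries, with a difference of -3.75 points (SE 2.06, adjusted p = 0.546, limma). Among the 17 member isoforms with a mean usage of at least 5%, the S34F and wild-type libraries did not overlap for 5, namely these 3 and BCOR ENST00000378444 and ENST00000378455. The same held for 8.65% of all tested isoforms. These BCORL1 isoforms were low, with mean levels of 1.11, 0.539 and 0.450 FPKM for ENST00000488135, ENST00000441294 and ENST00000540052.

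KDM2B has 17 isoforms in the files, and 3 of them reached a mean usage of 5%. KDM2B is known to make a long form with a demethylase domain and a short form from an internal start without it. ENST00000542973, the shortest of the 3 at 3170 bases, starts inside the gene and led with 51.3%. Its annotated first exon, of 140 bases, lies wholly inside exon 11 of both long isoforms. Whether this isoform is the known short form or an incomplete model of a longer transcript was not tested. The long isoforms ENST00000377069 and ENST00000377071, of 5224 and 4595 bases, had 25.0% and 13.2%, and both start near the 5′ end of the gene. ENST00000542973 ranged from 44.6% to 58.8% in the wild-type and from 41.9% to 58.2% in the S34F libraries, with a difference of -3.14 points (interval -13.8 to 7.52). ENST00000377069 ranged from 20.9% to 30.8% in the wild-type and from 22.3% to 33.3% in the S34F libraries, with a difference of 1.71 points (interval -7.51 to 10.9). ENST00000377071 was highest in untreated replicate 1, at 23.7%, and lowest in v1 wild type replicate 2, at 6.81%. In none of the 8 comparisons was a KDM2B isoform, start site or splice choice called. The 14 other isoforms together held the remaining share.

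PCGF1 has 7 isoforms in the files, and most of its FPKM lay outside the coding one. ENST00000475863, annotated as a retained intron, led with 56.6%. It starts inside the first intron and shares the downstream exons of the coding isoform ENST00000233630, which has 9 exons, a first exon of 1005 bases and a mean usage of 6.51%. ENST00000480844 (17.9%) is a processed transcript without an annotated coding sequence, and ENST00000489914 (8.64%) is a retained-intron form of the 3′ part. The leading isoform keeps the end of that intron as part of its first exon, and the last 30 bases of the intron at chr2:74507148-74507177 (GRCh38, minus strand) are shown with the last 3 in capitals.
PCGF1 intron end: gatgattggtgacggagggtgtatcttCAG
A pair of alternative acceptors lies further 3′. The coding isoform and ENST00000475863 use the upstream one and ENST00000480844 the downstream one, and the 26 bases between them, chr2:74505613-74505638, are not a whole number of codons. The capitals again mark the last 3 bases before the downstream acceptor, whose base at position -3 is T, while the upstream acceptor has C there.
PCGF1 between acceptors: aacaagtatgtccgatgttctgtTAG

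ENST00000475863 was at 55.9% and 50.4% of PCGF1 FPKM in untreated cells and at 74.2% and 68.3% in the vector control, the highest values of the 14 libraries. It was at 52.7% and 52.3% in the knockdown, a difference of -18.7 points from the vector control (SE 5.53, adjusted p = 0.276, limma). The vector control against untreated cells gave 18.1 points (SE 5.53, adjusted p = 0.836, limma). Both values contain the same vector control libraries. In the wild-type libraries it ranged from 45.0% to 65.4% and in the S34F libraries from 53.0% to 57.5%, and S34F against wild type gave -0.69 points (interval -9.47 to 8.09).

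The rise of PCGF1 FPKM after knockdown was spread over several isoforms. Part of it lay in isoforms below 5% mean usage, among them ENST00000463744, of 227 bases. Usage of ENST00000463744 ranged from 0% to 10.8%, and its deposited lower bound was 0 in all 14 libraries, so that part of the rise is uncertain. ENST00000475863 had 11.4 and 9.21 FPKM in the vector control and 13.0 and 13.4 FPKM in the knockdown. ENST00000480844 had 1.80 and 1.03 FPKM in the vector control and 5.34 and 4.15 FPKM in the knockdown. The coding isoform ENST00000233630 had 1.02 and 1.00 FPKM in the vector control and 1.19 and 1.48 FPKM in the knockdown, without overlap but over a range of less than 1 FPKM. Its highest levels were in v3 S34F, at 1.87 and 1.98 FPKM. As a share of the gene it was between 4.50% and 8.12% in all libraries, and the knockdown comparison gave -1.70 points (interval -6.00 to 2.59).
PCGF1 usage of the upstream acceptor of the pair shown above was 84.6% and 90.8% in the vector control and 63.9% and 69.97% in the knockdown. The difference was -20.8 points (SE 7.22, adjusted p = 0.303, limma) and did not pass the test. Over all genes 27 of 29956 acceptors were called after knockdown. Usage of the downstream acceptor was 15.4% and 9.17% in the vector control and 24.1% and 20.2% in the knockdown. The remaining share of the spanning FPKM was that of ENST00000463744, which uses neither acceptor, so the fall is not only a switch within the pair.

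Over all 4 genes, 17 isoforms, 16 start sites, 14 acceptors, 16 donors, 5 cassette exons and 3 coding shares were tested in 8 comparisons. The complementary BCOR acceptors and ENST00000378444 were the only calls in these features, all for S34F against wild type averaged over constructs. Among isoforms, 0 of 17 were called after knockdown (3 at an unadjusted p under 0.05, limma), where 0.129% of all isoforms were called. For wild type against knockdown 0 of 17 were called (1 at an unadjusted p under 0.05), where 0.273% of all isoforms were called. For S34F averaged over constructs, 0.534% of all start sites, 0.443% of all donors and 0.0267% of all coding shares were called. Within v1 alone and within v3 alone 0 of 17 isoforms were called (3 and 3 at an unadjusted p under 0.05), against 0% of all isoforms each. For vector control against untreated cells 0 of 17 were called (1 at an unadjusted p under 0.05), against 0.00959%, and for v3 against v1 0 of 17 (0 at an unadjusted p under 0.05), against 0.00479%. For any difference between the 7 groups 0 of 17 were called (3 at an unadjusted p under 0.05), against 0.163%. Of all 41727 isoforms, 4281 had an unadjusted p under 0.05 after knockdown and 4513 for wild type against knockdown. The count was 3425 for S34F within v1, 3074 within v3 and 2145 for vector control against untreated cells. It was 1484 for v3 against v1 and 5032 for any difference between the groups (limma).

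The partners of these proteins were read as 6 lists with 57 genes, all of which were measured and tested. The partners of the variant complex, RING1, RNF2, RYBP, YAF2, SKP1 and USP7, include its ubiquitin ligases, and 0 of 6 were called in any comparison. Their median change was -0.02 for S34F against wild type and -0.05 after knockdown, where all genes had medians of 0.02 and -0.01. RYBP had the smallest p of this list for S34F, at 0.30 in log2(FPKM + 1) (SE 0.12, adjusted p = 0.254, limma).

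Among 6 paralogs of the members, PCGF6, the subunit of another variant complex, rose with wild-type U2AF1 against knockdown by 0.75 (SE 0.12, adjusted p = 0.0217, limma). In that comparison 1.43% of all genes were called. It was at 8.88 ± 0.432 FPKM in the knockdown, 16.7 ± 1.19 FPKM in v1 wild type and 14.6 ± 0.188 FPKM in v3 wild type (mean ± SD, n = 2). After knockdown itself PCGF6 gave -0.46 (adjusted p = 0.113, limma), which passed when the replicate number was added to the fit as a block (adjusted p = 0.0341). With that block 11.8% of all genes were called after knockdown. PCGF5 had the smallest p of this list for S34F, at -0.18 (adjusted p = 0.457, limma). The median of the paralogs was 0.16 for S34F, against 0.02 for all genes, with 5 of 6 above 0 and none called. The share of all genes above 0 was not counted.

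Of 11 genes of Polycomb repressive complex 2, which methylates histone H3, 1 was called in each of 3 comparisons, where 1.85% of all genes were called for S34F, 1.43% for wild type against knockdown and 2.85% after knockdown. EZH2, its methyltransferase, fell with S34F by 0.71 in log2(FPKM + 1) (SE 0.12, adjusted p = 0.0195, limma), from 25.3 ± 4.73 and 26.0 ± 3.86 FPKM in v1 and v3 wild type to 14.6 ± 2.15 and 16.0 ± 1.60 FPKM in v1 and v3 S34F (mean ± SD, n = 2). Mean EZH2 was 40.5 FPKM in untreated cells, 27.3 FPKM in the vector control and 22.6 FPKM in the knockdown, so it also varied between groups without S34F. The vector control against untreated cells gave -0.55 for EZH2 (SE 0.18, adjusted p = 0.927, limma), which did not pass the test. EED, a core subunit, rose with wild type against knockdown by 0.72 (adjusted p = 0.0447, limma). It was at 16.1 ± 0.426 FPKM in the knockdown and at 26.1 ± 1.31 and 28.5 ± 2.95 FPKM in v1 and v3 wild type. PHF19, an accessory subunit, rose after knockdown by 0.76 (adjusted p = 0.0335, limma), from 62.1 ± 13.5 to 105.5 ± 14.8 FPKM. The calls of list genes, PCGF6 among them, were not checked by leaving out libraries. The median of the list was -0.16 for S34F and 0.17 after knockdown, with 4 of 11 and 7 of 11 above 0.

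The remaining lists held no call: 0 of 18 other subunits of Polycomb repressive complex 1, 0 of 12 BCL6 partners and corepressors and 0 of 4 genes of histone H2A deubiquitination passed in any comparison. With 0% to 2.85% of all genes called in each of these comparisons, counts of 0 in lists of this size are near the background. Over the 57 genes 11 had an unadjusted p under 0.05 after knockdown, where 18.9% of all genes did, 14 for wild type against knockdown, where 15.8% did, and 10 for S34F against wild type, where 15.9% did. The smallest p of each list for S34F belonged to DCAF7 (0.21, adjusted p = 0.189), TBL1X (-0.23, adjusted p = 0.366) and ASXL2 (0.25, adjusted p = 0.337), all by limma. With the replicate block 7 of the 57 genes were called after knockdown, 4 for wild type against knockdown and 4 for S34F, where 11.8%, 7.52% and 7.98% of all genes were, so these counts are near the background too. Among them, named after their values were seen, CBX7 (-0.64), L3MBTL2 (-0.62), PHC2 (-0.54), HDAC3 (-0.38) and CTBP2 (-0.61) passed as lower after knockdown. Under the same block PHF19 (-0.35) and AEBP2 (-0.46) passed as lower with S34F, HDAC3 (0.46) as higher and PHF19 (-0.50) as lower with wild type against knockdown. EZH2 passed as lower also within v1 alone (-0.75) with the block (adjusted p = 0.0184), and without it had an adjusted p of 0.139 there (limma).

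As a description of pattern, the tested genes most like each member were those with the highest Pearson r of log2(FPKM + 1) over the 7 group means. For BCOR these were RSL1D1 (r = 0.992), MRPS35 (0.99) and CYP26A1 (0.988). For BCORL1 they were RP11-420A23.1 (0.944), SCD5 (0.940) and CAB39L (0.934). For KDM2B they were ELP4 (0.979), MIEF1 (0.969) and PLEKHO1 (0.964), and for PCGF1 they were DOLPP1 (0.994), AC011737.2 (0.991) and CEP57L1 (0.989). Each was the highest of 14232 genes over only 7 points.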

How the data were processed

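Bulk RNA-seq of 14 A549 libraries was used. The submitters' processing notes name Trimmomatic 0.30, TopHat2 2.0.12 and the build GRCh37; for the quantifier and its annotation, the version is not given in the sources used here. The authors deposited FPKM per isoform with confidence bounds, and a coverage signal per isoform, which here served only to compare depth. Gene FPKM is the sum over a gene identifier, and isoform usage is FPKM over that sum. Start, acceptor, donor and cassette usage were summed over isoforms, with exons from GENCODE 29 (GRCh38) for the 169099 isoforms of equal identifier and length; denominators had a mean of at least 1 FPKM, a limit chosen after seeing the data. Coordinates and sequences are from that build.

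limma 3.58.1 (R 4.3.3) fitted 7 group means to all 14 libraries, on log2(FPKM + 1) for 14233 genes with a mean of at least 1 FPKM and no failed estimate, and on usage in percent for features with a mean of 5% to 95%, with Benjamini-Hochberg adjustment over all features of a kind and a threshold of 0.05. Fold changes on this scale understate low genes. Replicate numbers paired the samples at the gene level: deviations correlated above 0.1 in 21 of 21 group pairs (0.160 to 0.571). For isoform usage 10 of 21 did. The fits were also run on simulated data with independent noise in each library. That setting lacks the pairing of replicates seen here, so it does not test the fits on paired libraries. The rule for named genes took the 4 members in every library, their isoforms with at least 5% usage, called list genes and the smallest p of each list for S34F. Members and lists were chosen with earlier results of these data known. Alternatives were the replicate block, 3 other scalings, a pseudocount of 0.1, other filters, no trend, arcsine usage, no isoforms under 200 bases and each library left out. One result for a gene of the lists is not reported here.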

Additional observations from a re-analysis of the deposited data

How the results depend on the processing

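Over all of the alternatives, 874 of 937 recomputed values were classed as unchanged. For the change of a single gene or feature, unchanged means the same direction and the same side of the threshold. For a count of called members it means an equal or similar count, and many of these counts were 0 throughout. Leaving out 1 library in turn, a fit that assumes the lone library of a group to vary like the others, gave 0 to 1 member genes called after knockdown, 0 member genes for any difference between the 7 groups, 0 to 1 member isoforms for S34F against wild type and 0 to 6 member splice choices for the same comparison, against 1, 1, 1 and 2. The 1 gene called for any difference, PCGF1, was also lost (0 called) with upper quartile scaling, with median-of-ratios scaling, without a filter on low values and without the intensity trend. With the replicate block, which does not pair isoform usage, 4 member splice choices were called for S34F, the BCOR cassette exon and its acceptor joining the pair of exon 8 acceptors; the cassette value of -19.0 points then had an adjusted p of 0.0482. Without the block and without v3 S34F replicate 1 it was -23.3 points, with an adjusted p of 0.0330. The block changed no other call of the 4 genes, at either level. Over the libraries left out, PCGF1 after knockdown gave 0.67 to 0.85 and ENST00000378444 with S34F -41.9 to -31.8 points. Some values near 0 changed sign, none of them called: in log2(FPKM + 1), BCOR (-0.24 to 0.12) and KDM2B (-0.12 to 0.30) for vector control against untreated cells and BCORL1 (-0.10 to 0.16) and KDM2B (-0.20 to 0.22) after knockdown; in points, ENST00000397354 with wild type against knockdown (-0.29 to 10.1), the upstream BCOR acceptor after knockdown (-0.22 to 10.5), and ENST00000542973 (-7.20 to 0.92) and ENST00000377069 (-1.01 to 4.43) with S34F. The upstream acceptor with S34F gave -43.2 to -34.1 points. The cause was not tested. With the block, calls over all genes moved from 405 to 1681 after knockdown and from 264 to 1136 for S34F. No scaling moved the median of all genes by more than 0.0405 in log2. Deposited FPKM hold no read counts, so counting error is unknown.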
